A study of Mus musculus with 6 samples.

Results

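The 3 vehicle (VEH) arrays of a 6-array series were described here as a baseline profile of ribosome-bound mRNA in S100a10-expressing cells of the mouse cortex. They were chosen by their treatment label, and the 3 fluoxetine (FLX) arrays entered no value given below except where they are named. All mice came from bacTRAP line ES691/p11 KO, in which an S100a10 bacterial artificial chromosome drives the tagged ribosome on a background that lacks p11, the protein encoded by S100a10. The strain had been backcrossed onto C57BL/6 from FVB for 3 to 5 generations. VEH mice drank 1% saccharin for 15 to 18 days, and FLX mice drank the same solution with fluoxetine at 0.167 mg per ml. Constitutive loss of p11 was shared by both groups, so this baseline is that of mice without the protein, and no array of mice with p11 was analysed here. The labels give no ages and do not say how many animals were pooled per array. The labels number the arrays as biological replicates, call them independent and do not say what a replicate number stands for.

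Translating ribosome affinity purification (TRAP) pulls down tagged ribosomes from one class of cells, to enrich the mRNA those cells were translating. Every array of the series holds TRAP RNA, so RNA carried over from untagged cells could not be measured here. In the cortex, S100a10 marks a class of layer 5a pyramidal neurons that project to the striatum and have been linked to the response to antidepressants. The promoter is also active outside neurons: the submitters state that the transgene labels some non-neuronal cells, and they advise a published list of probe sets, which was not used here. In RNA from such a mixture, fewer cells of a type and less RNA per cell cannot be told apart.

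Each of 18193 genes was represented by its brightest probe set with a single gene symbol, as the linear GCRMA signal averaged over the 3 arrays. Signals were sorted into bands: below 50, which is the submitters' minimum, moderate from 50 to under 1000, high from 1000 to under 10000, and very high at 10000 or more. A probe set's signal depends on how well its probes bind as well as on its transcript, so a band is a range of signal and not a copy number, and a gene below 50 is not thereby absent. Values given as a triplet are those of VEH replicates 1, 2 and 3 in that order, an error is the SD over the 3 arrays (n = 3), and every log2 difference is replicate 3 over the mean of replicates 1 and 2. There is 1 group, so no test between groups was made, and the number of arrays limits the precision.

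Replicates 1 and 2 were alike over most probe sets and replicate 3 stood apart. Across 45037 probe sets the log2 signals of replicates 1 and 2 correlated at Pearson r = 0.997, whereas replicate 3 correlated with them at 0.961 and 0.958; probe sets are not independent replicates. The median over all probe sets was 41.3, 42.0 and 39.8. The 18 hybridization control probe sets, which report on bacterial transcripts added after amplification, were 1.80 to 5.18 times as bright in replicate 3 as in the mean of the other arrays. The 17 poly-A control probe sets at 50 or more, for transcripts added to the RNA at the start, had a median ratio of 0.632 (0.297 to 1.35) in replicate 3. On these poly-A controls replicates 1 and 2 differed as well, with a median ratio of 1.53 (0.886 to 1.81) for replicate 2 over replicate 1. The log2 difference between the 3′ and 5′ control probe sets, a measure of RNA integrity, was 2.32, 2.07 and 1.83 for Gapdh and 2.34, 2.30 and 2.56 for Actb, so the genes order the arrays differently. The part that these technical measures play in the differences of replicate 3 was not tested. Without replicate 3, the number of members at 50 or more moved by over 1.5 times in 0 of the 43 gene lists described below. This is a weak check, because the mean of a gene that is low on replicate 3 already rests on replicates 1 and 2. Signals of single lists did differ by array. The leptomeningeal list median was 3045, 3449 and 331, and the microglia and macrophage list had 20, 19 and 12 members at 50 or more.

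A mean of 50 or more was reached by 12095 genes (66.5%), a mean of 1000 or more by 4886 genes (26.9%) and a mean of 10000 or more by 604 genes (3.32%). The moderate band held 7209 genes, the high band 4282, and 6098 genes (33.5%) lay below 50. The median over all genes was 226. A small group of bright genes carried much of the signal: the very high band made up 43.0% of the summed gene means, the high band 47.4%, the moderate band 9.27% and the genes below 50 0.355%. The band was stable across arrays for 93.0% of the genes below 50, 76.8% of moderate, 69.5% of high and 74.0% of very high genes. All 3 arrays were at 50 or more for 11184 genes. A further 911 genes passed on their mean with at least 1 array below 50, and for 661 of these that array was replicate 3 alone.

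**Figure D1:**
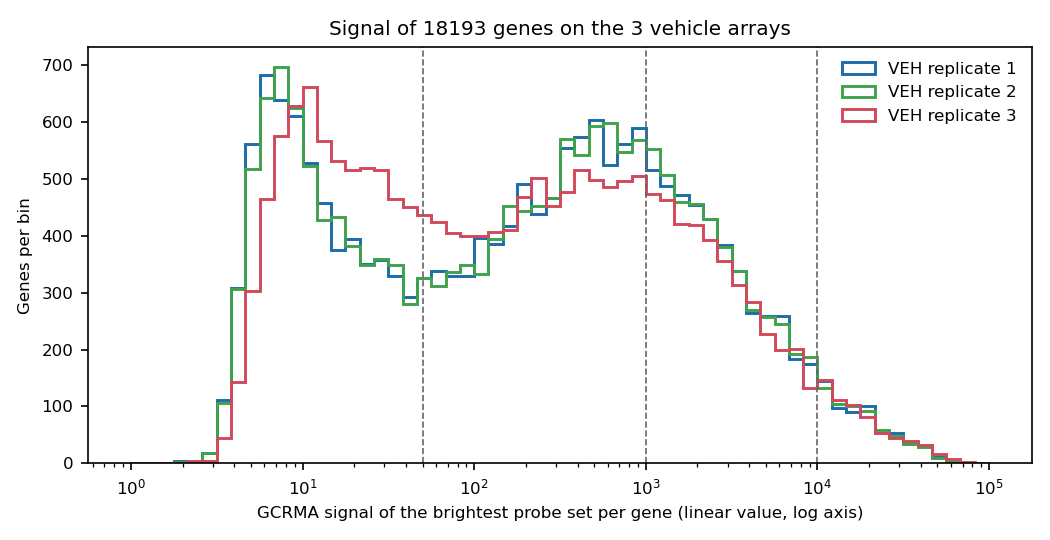
The number of genes (vertical axis) in each bin of GCRMA signal (horizontal log axis) is drawn for VEH replicates 1, 2 and 3, with dashed lines at 50, 1000 and 10000. The curves of replicates 1 and 2 nearly coincide, with a dip near 50, and that dip is shallower in replicate 3, which has 6550 genes below 50 against 6144 and 6159 in replicates 1 and 2.

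S100a10, whose promoter drives the transgene and whose protein these mice lack, is a member of the S100 family that pairs with annexin A2. Its brightest probe set read 3111, 2248 and 643, in the high band on replicates 1 and 2 and in the moderate band on replicate 3. The other probe sets of S100a10 lay below 50 on every array, at means of 42.1 ± 7.69 and 6.89 ± 1.67. The brightest is of the x_at type, which can match several transcripts, and where its probes lie with respect to the deletion is unknown here, so its signal is no check of the knockout. Anxa2, which encodes the annexin partner, read 11480.0, 10966 and 1102, and Ahnak, a giant scaffold bound by the p11 and annexin A2 complex (chosen after its values were seen), read 2461, 2805 and 199. All of these brightest probe sets were lowest on replicate 3, with log2 differences of -2.06 for S100a10, -3.35 for Anxa2 and -3.73 for Ahnak. In all, 13 of 17 measured genes of p11 and its reported partners reached 50 (76.5%, against 66.5% over all genes). Ctsb, the lysosomal protease cathepsin B, read 7443, 10982 and 1735, again lowest on replicate 3, and Scn10a and Plg were lowest of the list, at means of 10.3 and 13.4.

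The 30 genes with the highest signal came from the cytoskeleton, energy metabolism, the ribosome and neuronal signalling. Cfl1, which encodes the actin-severing protein cofilin, led with 60956, 60421 and 73700.1, brightest on replicate 3. Rps29, a small-subunit ribosomal protein gene, read 68765, 67727 and 47408, dimmest on replicate 3. Hspa8, the constitutive cytosolic Hsp70 chaperone, read 54323, 51496 and 76587, and its replicate 3 value was the highest of any probe set on the 3 arrays. The order of these leaders therefore differed between arrays: Rps29 was above Cfl1 on replicates 1 and 2 and below it on replicate 3. Other cytoskeletal genes of the group were Fscn1 (an actin-bundling protein), Stmn3 (a stathmin that destabilises microtubules), Tuba1a (alpha tubulin), Dynll1 (a dynein light chain) and Actg1 (gamma actin), with means of 41821 to 54024. Metabolic genes were Akr1a1, an aldehyde reductase, at 56969 ± 3918, the malate dehydrogenases Mdh1 at 51477 ± 5099 and Mdh2 at 47037 ± 8939, Ldhb, a lactate dehydrogenase subunit, at 42614 ± 10022, and the glycolytic enzyme gene Tpi1 at 42142 ± 3947. The mitochondrial genes Cox6a1 (a cytochrome oxidase subunit), Slc25a4 (the ADP/ATP carrier) and Mff (a mitochondrial fission factor) had means of 43812, 42971 and 41495. Mff varied least of the 30, with 41885, 40530.4 and 42069 and a coefficient of variation of 2.03%.

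Neuronal genes among the 30 included Snap25, a membrane fusion protein of the presynaptic terminal, at 47686, 47483 and 43142. Prkar1b, the neuronal regulatory subunit of protein kinase A, read 41705, 46779.9 and 57131, and Mapk10, the neuronal c-Jun kinase JNK3, read 41969, 40221 and 56782. Snap25 was slightly lower on replicate 3 and the kinase genes were higher there. Nsmf, which signals from synapse to nucleus, and Ndrg4, a brain-rich member of the NDRG family, had means of 43867 and 44907. Klf9, a transcription factor gene induced by glucocorticoids, and Tsc22d1, a leucine zipper factor gene, had means of 46740.3 and 47440.3. The remaining members were Ywhab (a 14-3-3 adaptor), Hint1 (a nucleotide hydrolase), Rps28 (ribosomal), Psmb4 (a proteasome subunit), Eif5a (a translation factor), Pebp1 (a Raf kinase inhibitor) and Ptgds, with means of 42027 to 53587. Ptgds, the prostaglandin D2 synthase of meninges, choroid plexus and oligodendrocytes, was the member of the 30 best known from non-neuronal cells, at 42415, 45148 and 38518. Its other probe set read 49001, 53164 and 23411, with a larger difference on replicate 3.

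Probe design bears on this group. Of the 30 representing probe sets, 29 were of the x_at, a_at or s_at type, which can match several transcripts or variants, against 22.8% of all single-symbol probe sets. With plain probe sets alone, the leading 30 shared 4 genes with the group above: Snap25, Ptgds, Psmb4 and Mdh1. A further 14 probe sets with several symbols or none were at or above the lowest mean of the 30 (41495) and are not named here. Among 7514 genes with several probe sets and a mean of 50 or more, 4657 (62.0%) had another probe set below 50, and the brightest was a median of 4.51 times the next. Cfl1 itself had a second probe set at 995, 925 and 1834.

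**Figure D2:**
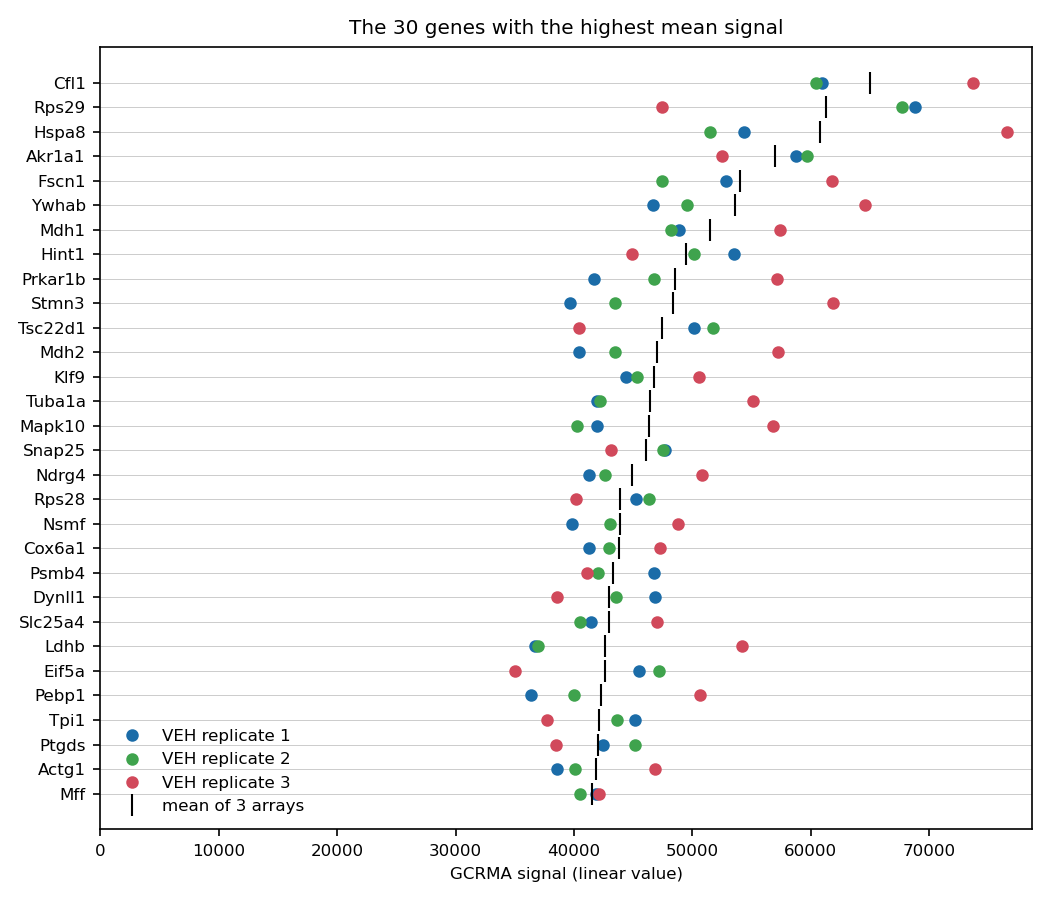
The 30 genes of highest mean signal (vertical axis) are plotted with the linear GCRMA signal of each of the 3 VEH arrays as points and the mean as a bar (horizontal axis, from 0). Replicate 3 lies above replicates 1 and 2 for genes such as Cfl1, Hspa8, Stmn3 and Ldhb and below them for Rps29, Hint1 and Eif5a, with coefficients of variation from 2.03% to 24.6%.

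Neuronal genes were broadly present. All 24 measured pan-neuronal genes reached 50 on each array, with a median of 5724, against 66.5% and a median of 226 over all genes. Stmn3 read 39686, 43419.9 and 61881, and Eno2, the neuronal enolase, read 19862, 21549.5 and 37879.7. Both were highest on replicate 3. The dimmest were Dcx, doublecortin of immature and some mature neurons, at 142, 131 and 345, and Snhg11, a neuronal noncoding RNA, at 430.5, 482 and 238, so that even the lowest members were moderate. The summed signal of the list was 209803, 226777 and 305641. On replicate 3, 8 members were at least 2-fold above both other arrays, among them Elavl3 (an RNA-binding protein) and Gap43 (a growth cone protein), and 2 were at least 2-fold below, Syt1 and Syp, both of which encode synaptic vesicle membrane proteins. Over all genes with a mean of 50 or more the shares were 8.28% above and 21.1% below. Such counts for the lists below are likewise of members with a mean of 50 or more.

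Genes of cortical glutamatergic neurons reached 50 in 20 of 20 cases, with a median of 2257. Mef2c, an activity-regulated transcription factor, read 17845, 20587 and 19919, Hpca, the calcium sensor hippocalcin, read 11334, 11075 and 16285, and Arpp21, a regulator of calmodulin signalling, read 12162, 11558 and 10535. These were very high on every array, and Mef2c and Arpp21 varied little. The defining marker Slc17a7, the vesicular glutamate transporter of cortical pyramidal neurons, was near the bottom of the list at 176, 226 and 118, and Emx2, a homeobox gene of the dorsal forebrain, was lowest at 50.4, 64.7 and 155. Both were moderate on all 3 arrays.

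Layer 5a and corticostriatal genes, which mark the pyramidal class described above, reached 50 in 16 of 18 cases with a median of 737. Ptn, which encodes the growth factor pleiotrophin, read 19208, 18290.4 and 6410.0, Plcxd2, a layer 5a marker, read 14710.2, 15075 and 11728, and Pde1a, a calmodulin-dependent phosphodiesterase, read 4725, 4350.2 and 3660.4. Plcxd2 and Pde1a were close across arrays, whereas Ptn was lower on replicate 3, with a log2 difference of -1.55. Tmem91 and Tnni3k were below 50 on every array, at 9.15, 10.7 and 12.7 and 9.24, 9.64 and 13.1. The summed signal was 49089.5, 48028 and 32577, of which Ptn held 19208, 18290.4 and 6410.0. Of 16 members at 50 or more, 6 (37.5%) were at least 2-fold lower and 1 (6.25%) higher on replicate 3. Over all genes these shares were 21.1% and 8.28%. The 6 were Sema3e, Adcyap1, S100a10, Ptn, Rspo1 and Hsd11b1. The list did not move as a whole: Bcl6, Tcerg1l, Fezf2, Deptor and Ddit4l were higher on replicate 3, with log2 differences of 0.33 to 1.28.

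Genes of the other cortical layers were also present. Subcerebral layer 5b genes reached 50 in 14 of 15 cases (median 836), layer 6 genes in 16 of 17 (median 565) and layer 2 to 4 genes in 16 of 17 (median 1018). Pcp4, a calmodulin-binding peptide of deep layers, was the brightest of the layer 5b genes at 39314, 35954 and 28338. Crym, a thyroid hormone-binding protein held by both the layer 5b and the layer 6 list, read 2514, 3011 and 4669, and Nr4a2, a nuclear receptor of deep layers that is also activity-regulated, read 2012, 2142 and 12374. Pcp4 was lower and Crym and Nr4a2 were higher on replicate 3. In the upper layer list Calb1, calbindin, read 6532, 8186 and 14257, Lamp5, a membrane protein, read 4555, 5851 and 2625, and Rasgrf2, a Ras exchange factor, read 1829, 2279 and 4329.9. Lamp5 was lowest on replicate 3 and the others were highest there. The lowest members of these lists were Cacna1h at a mean of 42.9, Syt6 at 26.2 and Mdga1 at 17.7, each below 50.

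GABAergic interneuron genes reached 50 in 20 of 26 cases (76.9%, against 66.5% over all genes), with a median of 341. Gad1, the enzyme that makes GABA, read 12828, 14968 and 25962, in the very high band. Cck, the cholecystokinin precursor that pyramidal neurons also express, read 7819, 9652 and 3643, and Crh, corticotropin-releasing hormone, read 1298, 2018 and 1101. Gad1 was highest and Cck and Crh were lowest on replicate 3. Sp8 and Erbb4, an interneuron transcription factor and a neuregulin receptor, were lowest of the list at means of 17.0 and 20.6. The summed signal was 28685, 35872 and 43890.4. Of 20 members at 50 or more, 6 (30%) were at least 2-fold higher on replicate 3 and 1 (5%) lower. Over all genes these shares were 8.28% and 21.1%. Among markers chosen after their values were seen, Sst, Vip and Lhx6 had means of 801, 879.9 and 171. Gad2 read 764, 864 and 2462 and Pvalb read 512, 607 and 2664, so both were moderate on replicates 1 and 2. Besides Sp8 and Erbb4, the members below 50 on their mean were Htr3a at 44.8, Dlx6 at 44.4, Cort at 31.0 and Dlx5 at 28.2.

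Striatal projection neuron genes reached 50 in 14 of 17 cases (median 247) and hippocampal and thalamic neuron genes in 15 of 18 (median 255), close to the median of all genes. As shares these were 82.4% and 83.3%, against 66.5% over all genes. Foxp1, a forkhead factor that cortical neurons share, read 4230.4, 2776 and 11273, Pde10a, a striatal phosphodiesterase, read 2622, 1886 and 3859.6, and Adcy5, an adenylyl cyclase, read 2490.4, 3115 and 844. Foxp1 and Pde10a were highest and Adcy5 was lowest on replicate 3. The dopamine receptor genes of the list, chosen after their values were seen, were moderate for Drd1 at a mean of 160.1 and below 50 for Drd2 at 31.9. Ptpn3, a tyrosine phosphatase, led the hippocampal and thalamic list at 1860.0, 1984 and 4453, and Gbx2, a thalamic homeobox gene, was lowest at a mean of 13.3.

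**Figure D3:**
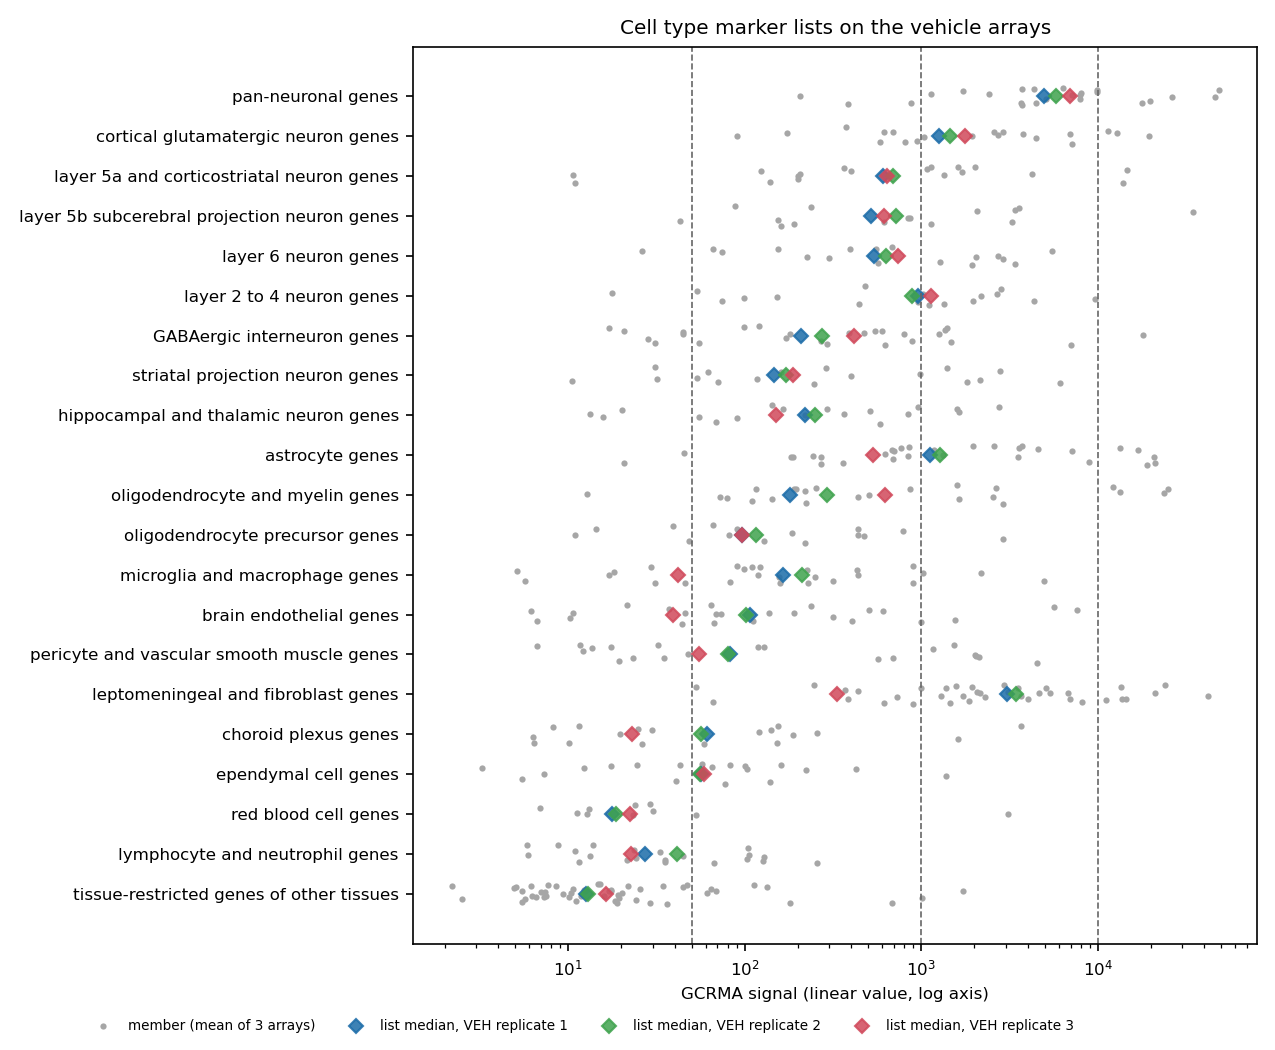
Each grey point is the mean GCRMA signal of a list member over the 3 VEH arrays (horizontal log axis), with lists on the vertical axis and diamonds for the list median on each array; dashed lines mark 50, 1000 and 10000. Pan-neuronal, glutamatergic and leptomeningeal lists have the highest medians, 5724, 2257 and 2208 over the arrays, and the leptomeningeal median is far lower on replicate 3 than on the other arrays.

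Astrocyte genes reached 50 in 28 of 30 cases, with a median of 1015. Cpe, carboxypeptidase E, which neurons also express, read 24538, 28247 and 10503, Clu, the secreted chaperone clusterin, read 22386, 30286 and 9525, and Aldoc, an astrocyte-rich aldolase, read 12353, 13259.9 and 30964. Cpe and Clu were lowest and Aldoc was highest on replicate 3. Bmpr1b and Cldn10 were below 50, at means of 45.0 and 20.8. The summed signal was 145334, 169970.0 and 92691. Of 28 members at 50 or more, 15 (53.6%, against 21.1% over all genes) were at least 2-fold lower on replicate 3. A further 4 (14.3%, against 8.28%) were at least 2-fold higher on replicate 3. The members that were higher there were Aldoc, Fabp7 (a fatty acid-binding protein), Gfap (an intermediate filament) and Mt3 (a metallothionein), with log2 differences of 1.27, 1.34, 2.03 and 1.04. The lower members included the gap junction genes Gja1 and Gjb6, at -2.40 and -3.99, and the secreted lipoprotein gene Apoe, at -3.13. They also included genes of soluble proteins, the metallothionein Mt1 at -1.41 and the calcium-binding S100b at -1.28, and Mt2 was at -0.91. Those apart from Aldoc were chosen after their values were seen. So were Aqp4, Mlc1 and Ntsr2, which differed at least 2-fold between replicates 1 and 2, as 0.446% of all genes at 50 or more did. Aqp4 read 117, 326 and 120, Mlc1 read 90.8, 302 and 154, and Ntsr2 read 153, 412 and 513.

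Oligodendrocyte and myelin genes reached 50 in 22 of 23 cases, with a median of 437. Qdpr, a pteridine reductase, read 21521, 22479 and 30460.5, Cnp, the myelin phosphodiesterase, read 14642, 15854 and 40515, and Apod, the secreted apolipoprotein D, read 17889, 19903 and 2151. Cnp was highest and Apod lowest on replicate 3, with log2 differences of 1.41 and -3.13. Gjb1, a connexin, was the member below 50, at a mean of 12.8. The summed signal was 70540.3, 79763 and 115891, highest on replicate 3. Mbp, the myelin basic protein gene (chosen after its values were seen), read 5620.2, 7728 and 23130.5, also highest there. Of 22 members at 50 or more, 10 (45.5%) were at least 2-fold higher on replicate 3 and 3 (13.6%) lower. Over all genes these shares were 8.28% and 21.1%. Oligodendrocyte precursor genes reached 50 in 11 of 15 cases (73.3%, against 66.5% over all genes), with a median of 128. Olig1, a lineage transcription factor, read 1145, 1826 and 5719, Bcas1, of early myelinating cells, read 243, 318 and 1798, and Pdgfra, the growth factor receptor of precursors and of fibroblasts, read 579, 776 and 72.1. Pdgfra was lowest on replicate 3, opposite to Olig1 and Bcas1.

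Microglia and macrophage genes reached 50 on their mean in 19 of 26 cases (73.1%) and on every array in 12, with a median of 139. Over all genes 66.5% reached 50 on their mean, 11184 of 18193 did so on every array, and the median was 226. Ctss, the protease cathepsin S, read 5199, 7679 and 1899, Laptm5, a lysosomal membrane protein, read 2206, 3525 and 832, and Csf1r, the receptor that microglia need to survive, read 774, 1358 and 918. Ctss and Laptm5 were lowest on replicate 3, while Csf1r lay between the values of the other arrays. Cx3cr1 (chosen after its values were seen) varied little, at 213, 227 and 241. The integrin gene Itgam and the chemokine gene Ccl3 were near the lowest signals, at 5.75, 5.10 and 6.27 and 4.75, 4.87 and 5.78. The summed signal was 13909, 19284 and 5482. Of the 19 members at 50 or more, 15 (78.9%) were at least 2-fold lower on replicate 3 and 0 higher. Over all genes these shares were 21.1% and 8.28%.

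Of vascular genes, 16 of 24 brain endothelial genes (66.7%, median 92.8) and 10 of 20 pericyte and smooth muscle genes (50%, median 83.3) reached 50. The endothelial share was near the 66.5% of all genes, and both medians were below the 226 of all genes. Tjp1, a junction scaffold found in many cells, read 7955, 9188 and 5583, Itm2a, a type II membrane protein, read 7832, 8362 and 714, and Bsg, the membrane glycoprotein basigin, read 1652, 2623 and 367. All of them were lowest on replicate 3, Itm2a by the most. Pecam1, an adhesion molecule, and Tie1, a receptor kinase, were the lowest of the endothelial list and below 50 on every array, at 5.55, 5.65 and 7.14 and 5.42, 5.64 and 8.81. Other members below 50 on their mean were Cdh5, Tek, Flt1, Vwf, Emcn and Ocln. Endothelial genes that reached it included the efflux pump gene Abcb1a at a mean of 503, Podxl at 317, Eng at 237, Sox17 at 191, Slco1a4 at 138 and Esam at 112, and, closer to the limit, Sox18 at 73.6, the receptor gene Kdr at 68.9, the tight junction gene Cldn5 at 67.1 and Slco1c1 at 64.7. These members, apart from Pecam1 and Tie1, were chosen after their values were seen. Among mural cell genes Tpm2, a tropomyosin, read 6819, 4799.5 and 1956, Vtn, vitronectin, read 2521, 3497 and 342, and Acta2, smooth muscle actin, read 3616, 2017 and 486. These were lowest on replicate 3 as well, and Cnn1 and Abcc9 were below 50 at means of 6.68 and 11.6. The summed endothelial signal was 22132, 25315 and 8715 and the summed mural signal 22595, 17439.7 and 5270.0.

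Leptomeningeal and fibroblast genes, which mark the membranes that cover the brain, were all at a mean of 50 or more (38 of 38), with a median of 2208, in the high band. Fmod, the collagen-binding proteoglycan fibromodulin, read 32287, 35262 and 4867, and Zic1, a zinc finger factor of meninges and granule neurons, read 31060.5, 26179 and 5853. Both were very high on replicates 1 and 2 and several-fold lower on replicate 3, with log2 differences of -2.79 and -2.29. At the lower end Col6a3, a collagen VI chain, read 76.8, 115 and 6.71, and Col1a1, a collagen I chain, read 70.8, 59.0 and 29.9, both below 50 on replicate 3. The summed signal was 283946, 298273 and 67677, of which Ptgds held 42415, 45148 and 38518. Of the 38 members, 36 (94.7%, against 21.1% over all genes) were at least 2-fold lower on replicate 3 and 0 higher. The median log2 difference was -3.43, and 33 members remained at 50 or more on that array. Transcription factors and extracellular proteins moved alike here: Foxc1, Foxc2, Foxd1, Tbx18, Twist1 and Zic1 had log2 differences of -3.73 to -2.29, and Dcn, Ogn, Lum and Islr, which encode matrix proteins, of -4.72 to -3.64. Apart from Zic1 these were chosen after their values were seen.

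Choroid plexus genes reached 50 in 9 of 18 cases (median 44.1) and ependymal genes in 11 of 19 (median 65.5). Both shares, 50% and 57.9%, were below the 66.5% of all genes. Ecrg4, a secreted peptide precursor, read 4558, 5992 and 488, and Kcnj13, a potassium channel of transporting epithelia, read 2085, 2568 and 169. Both were high on replicates 1 and 2 and moderate on replicate 3. Ttr, transthyretin, the defining product of the choroid plexus (chosen after its values were seen), was moderate at a mean of 152, and Otx2, its transcription factor, was below 50 at 5.29, 5.33 and 8.37. In the ependymal list Tppp3, a tubulin-binding protein, read 1306, 1187 and 1624, which varied little, and the defining factor Foxj1 (chosen after its values were seen) had a mean of 24.5.

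Genes of blood cells were mostly below 50. Of red blood cell genes, 2 of 10 reached 50, and of lymphocyte and neutrophil genes 7 of 21, with medians of 23.6 and 33.1. The former were Bpgm, a glycolytic enzyme also made in brain, at 3453, 3099 and 2706, and Hba-a2, an alpha globin, at 84.2, 54.4 and 19.5, below 50 on replicate 3. Zap70, a T cell kinase, led the white cell list at 240.5, 231 and 298, and Mpo, of neutrophils, was at 5.47, 5.51 and 6.55. Genes restricted to other tissues, such as liver, muscle, skin and testis, served as a floor: 9 of 53 reached 50, with a median of 15.2. Lor and Krt10, which encode skin proteins, were in the high band at 1748, 1639 and 1762 and 1326, 1167 and 532, so a signal above 1000 can occur for a gene with no known role in this tissue.

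Ribosomal protein genes had the highest medians of the 43 lists. Large-subunit ribosomal protein genes reached 50 in 23 of 25 cases and 10000 in 17, with a median of 17243, and small-subunit genes in 21 of 23 and 14, with a median of 17296. Rpl13a read 40830.2, 41012 and 32863 and Rps9 read 46815, 34907 and 29188, both lowest on replicate 3. Rpl12, Rps16 and Rps27, genes that every cell uses, were nevertheless below 50 at means of 4.86, 4.41 and 19.1, so single-symbol probe sets can miss an expressed gene. Many ribosomal protein genes lack a single-symbol probe set: of 51 large-subunit names 25 were measured. Translation factor genes reached 50 in 36 of 37 cases (median 6975). Eif4h, a helicase cofactor, read 35642, 36398 and 39869.6, Eif3i, a subunit of initiation factor eIF3, read 32939.5, 31352 and 36134, and Eif5a read 45496, 47193 and 35031. The first 2 of these varied little, and the member below 50 was Eif4a3, of the exon junction complex, at 9.12, 9.35 and 11.4.

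Energy metabolism was similarly bright. Oxidative phosphorylation genes reached 50 in 74 of 77 cases and 10000 in 50, with a median of 16256 and a summed signal of 1290770.0, 1245470.0 and 1242430.0. Atp5h, an ATP synthase subunit, read 41117, 41487 and 37691, and Cox5a, a cytochrome oxidase subunit, read 39628, 36544 and 43253. The median log2 difference of the list was -0.00. Of 74 members at 50 or more, 0 were at least 2-fold higher and 5 (6.76%) lower on replicate 3. Over all genes these shares were 8.28% and 21.1%, so the list was one of the steadier ones. Cox4i2, the lung isoform, and Ndufb4 were below 50 at means of 6.85 and 9.32. Glycolysis and lactate genes reached 50 in 22 of 26 cases (median 4196). Aldoa, an aldolase, read 37462, 39004 and 45426 and Ldhb read 36675, 36982 and 54184, both highest on replicate 3. The isoforms of other tissues, Ldhc of testis and Slc2a2 of liver, were below 50 at means of 10.9 and 5.42.

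Cytoskeletal genes reached 50 in 45 of 48 cases and 10000 in 23, with a median of 8413. Tuba1a read 41949, 42209.6 and 55107, highest on replicate 3, and the isoforms Actc1, of heart, and Tubb1, of platelets, were below 50 at means of 10.4 and 6.61. Proteasome and ubiquitin genes all reached 50 (37 of 37, median 7259). Psmc2, a proteasomal ATPase, read 30802, 37518 and 34234, and Psma6, a core subunit, read 21104, 21104 and 26049, which were close across arrays. The dimmest members were the interferon-inducible subunits Psmb9, at 556, 552 and 131, and Psmb8, at 460.2, 491 and 21.4, and both were far lower on replicate 3. Heat shock and chaperone genes reached 50 in 45 of 47 cases (median 5940.1). Hsp90aa1 read 35753, 33924 and 38735, and Cct6a, a chaperonin subunit, read 33638, 32244 and 32489, with little spread.

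**Figure D4:**
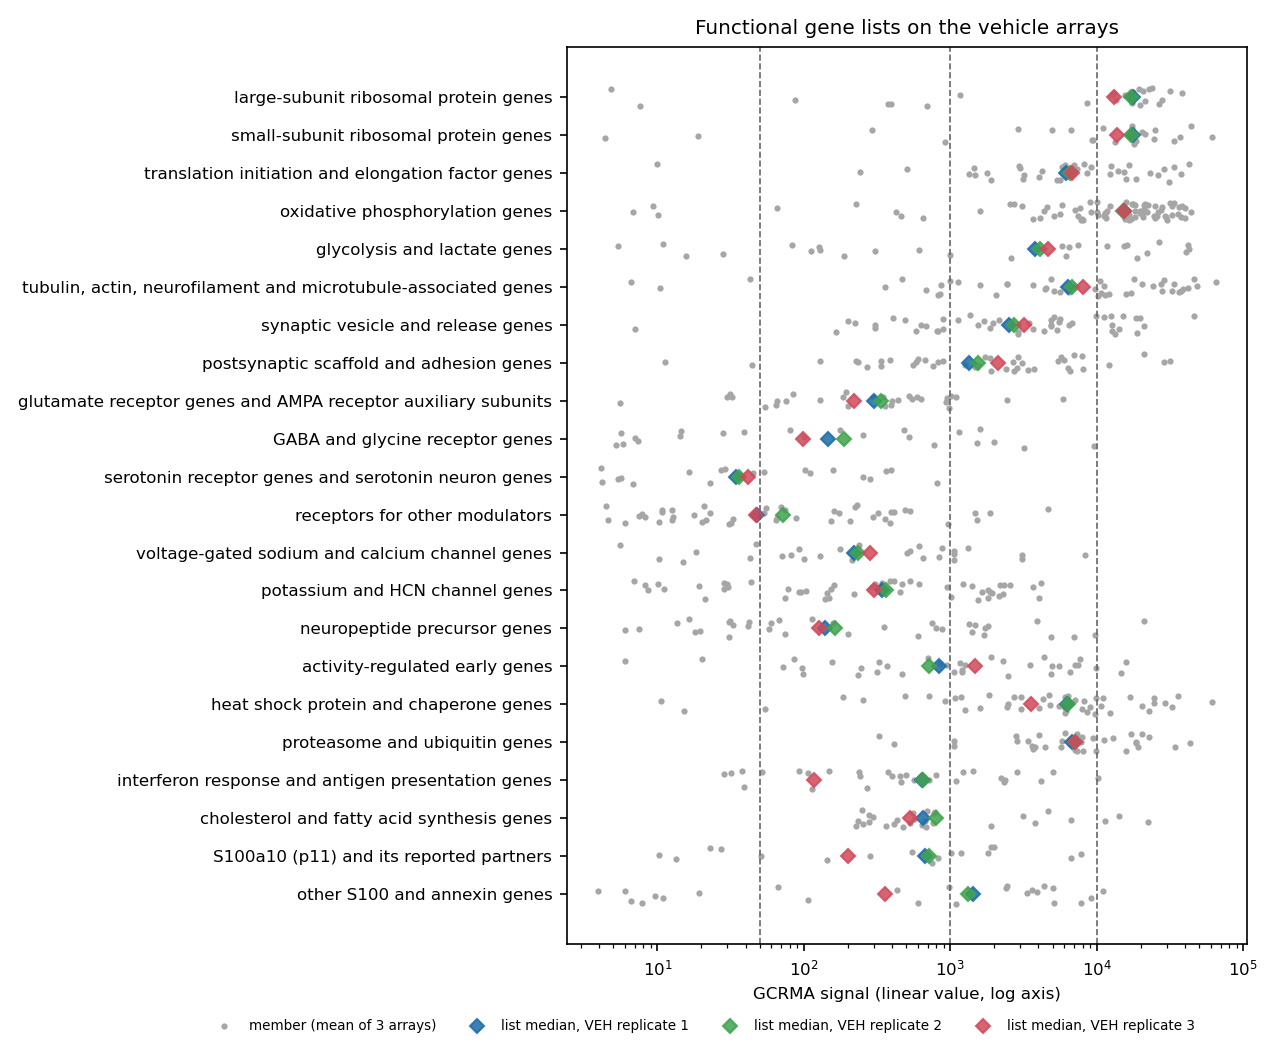
Each grey point is the mean GCRMA signal of a member of a functional list over the 3 VEH arrays (horizontal log axis), with lists on the vertical axis, diamonds for list medians on each array and dashed lines at 50, 1000 and 10000. Ribosomal protein and oxidative phosphorylation lists have medians above 10000, and serotonin genes have a median below 50, at 44.8.

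Synaptic genes were mostly in the moderate to very high bands. Synaptic vesicle and release genes reached 50 in 49 of 50 cases (median 3159.7) and postsynaptic scaffold and adhesion genes in 41 of 43 (median 1878). Stx1a, a syntaxin of the fusion machinery, read 18169.5, 18273 and 26499.9, and Dnm1, the neuronal dynamin, read 16040.1, 17308 and 26256. Kalrn, which encodes kalirin, a protein of dendritic spines, read 25776, 30253 and 38899, and all of these were highest on replicate 3. Ppp3ca, a calcineurin subunit, read 26043, 26608 and 34024, also highest there. Sv2c, a vesicle protein of the basal ganglia, and Shank1, a postsynaptic scaffold, were below 50 at means of 7.09 and 11.2.

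Receptor and channel genes lay lower than the synaptic lists. Glutamate receptor genes reached 50 in 26 of 30 cases (median 355), GABA and glycine receptor genes in 13 of 22 (138), sodium and calcium channel genes in 21 of 27 (238) and potassium and HCN channel genes in 41 of 53 (342). As shares these were 86.7%, 59.1%, 77.8% and 77.4%, against 66.5% over all genes. None of these lists had a member in the very high band (0 genes). Gria2, the AMPA receptor subunit that limits calcium entry, read 6736, 7084 and 3867, and Glrb, the glycine receptor beta subunit, read 12396, 13935 and 2382. Gabbr1, a GABA-B receptor subunit, read 3249, 4876 and 1478, and all of these were lowest on replicate 3. Grin2a, an NMDA receptor subunit, was below 50 at 5.22, 5.28 and 6.17, near the lowest signals on the array. Among channels Cacnb4, a calcium channel beta subunit, read 8695, 7771 and 8495, Kcna2, an axonal potassium channel, read 4237, 4929.5 and 3248, and Kcnk2, the leak channel TREK-1, read 5380.3, 5687 and 1051. Cacnb4 varied little, and Kcnk2 was far lower on replicate 3, at -2.40.

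Serotonin genes were among the dimmest neuronal groups: 9 of 19 reached 50 (47.4%, against 66.5% over all genes). The list median was 44.8, and no member was high. Htr2a, also named in the list, had no single-symbol probe set and was not measured. Of the 13 receptor genes measured, Htr2c was the brightest at 869, 1084 and 479. Next came Htr1b, at 338, 365 and 152, Htr7, at 254, 248 and 254, and Htr5a, at 97.0, 126 and 107. Htr2c and Htr1b were lowest on replicate 3, while Htr7 was nearly the same on all arrays, with a coefficient of variation of 1.31%. The other probe set of Htr1b read 92.5, 89.9 and 110, highest on replicate 3, so the direction for Htr1b depends on the probe set. Htr1a read 124, 127 and 55.1, Htr1f read 55.4, 68.5 and 36.1 and Htr3a, the ionotropic receptor subunit, read 34.2, 36.3 and 63.8; Htr1f passed on its mean and Htr3a did not. Htr1d, Htr4 and Htr5b lay between means of 16.4 and 27.0, and Htr3b, Htr6 and Htr2b between 4.15 and 5.42, below 50 on all arrays. Since each probe set has its own affinity, this order is of signals and not of receptor abundance. The monoamine oxidase genes Maoa and Maob read 345, 343 and 398 and 380.0, 408 and 399.7, with little spread. Slc6a4 and Tph1, the serotonin transporter and a synthesis enzyme (chosen after their values were seen), had means of 6.79 and 5.63. The list median includes these genes of serotonin neurons.

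Receptors for other modulators reached 50 in 26 of 47 cases (55.3%, against 66.5% over all genes), with a median of 64.1. Nr3c1, the glucocorticoid receptor, read 4246, 3669.8 and 5999, Nr3c2, the mineralocorticoid receptor, read 1918, 1600.3 and 1056, and Cnr1, the cannabinoid receptor of neurons, read 2099.5, 2243 and 1256. Nr3c1 was highest and the other two were lowest on replicate 3. Drd3 and Sstr1 were lowest at means of 4.43 and 4.59. Neuropeptide and granin genes reached 50 in 24 of 36 cases (66.7%, near the 66.5% over all genes), with a median of 144. Chgb, the secretory granule protein secretogranin I, read 10337, 14736 and 3878, lowest on replicate 3, and Nmu and Calcb had means of 7.54 and 5.96. Of the 24 members at 50 or more, 11 (45.8%) were at least 2-fold lower and 0 higher on replicate 3. Over all genes these shares were 21.1% and 8.28%.

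Activity-regulated early genes reached 50 in 34 of 36 cases, with a median of 1179. Egr3 read 17062, 14856 and 15564, Egr1 read 13648, 12645 and 17813, both zinc finger factors induced by firing, and Rgs2, a regulator of G protein signalling, read 10352, 8996 and 10086. These leaders varied little, yet 12 (35.3%) of the 34 members at 50 or more were at least 2-fold higher on replicate 3 and 3 (8.82%) lower. Over all genes these shares were 8.28% and 21.1%. Among the higher members were Arc, Npas4 and Nr4a1, with log2 differences of 2.51, 2.35 and 1.87 (chosen after their values were seen). Fosb and Fosl1 were below 50 at means of 20.0 and 6.00. Interferon response and antigen presentation genes reached 50 in 26 of 30 cases (median 454). B2m, the light chain of class I molecules, read 13102, 16268 and 992, and Ifi35 and Ifi27 read 6869.8, 6724 and 1444 and 5662, 5489 and 1394. All of them were lowest on replicate 3, as were 22 of the 26 members at 50 or more (84.6%) by at least 2-fold. Over all genes this share was 21.1%.

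Cholesterol and fatty acid synthesis genes all reached 50 (29 of 29, median 645). Hmgcs1, which makes HMG-CoA, read 17089, 16598 and 33855, Acly, which supplies acetyl-CoA, read 12186, 12004 and 18520.4, and Fdft1, squalene synthase, read 8568, 8293 and 17389. These were all highest on replicate 3, and the dimmest, Mvk, mevalonate kinase, and Fads2, a desaturase, were moderate at means of 226 and 233. Other S100 and annexin genes reached 50 in 17 of 24 cases (70.8%, against 66.5% over all genes), with a median of 1035. Anxa5 read 14702, 14109.6 and 4488 and Anxa1 read 13636, 12414 and 1192, lowest on replicate 3, and S100a3 and Anxa10 had means of 3.92 and 5.99.

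At the limit of 50 the arrays disagreed. Gpr34, a lysophospholipid receptor of microglia, lay just inside with a mean of 50.0 from 60.6, 65.0 and 24.4, and Ccnjl, a cyclin-like gene, lay just outside with 50.0 from 50.7, 26.2 and 73.1. Each had an array on either side of the limit. In total 425 genes with a mean below 50 had at least 1 array at 50 or more.

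The spread between arrays lay mostly between replicate 3 and the others. Among the 12095 genes with a mean of 50 or more, 2555 (21.1%) were at least 2-fold lower on replicate 3 than on both other arrays and 1002 (8.28%) at least 2-fold higher. For replicate 1 the corresponding counts were 9 (0.0744%) and 8 (0.0661%), and for replicate 2 they were 5 (0.0413%) and 26 (0.215%). Replicates 1 and 2 differed by at least 2-fold for 54 genes (0.446%). These are counts with no test, since a single array was set against the others.

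The genes with the lowest ratio were Tm4sf1, Atp13a5, Cp, Slc26a7, Ptgfr and Hcar1, with log2 differences of -5.34 or lower. Tm4sf1, a tetraspanin-like protein of endothelium and other cells, read 1013, 990.2 and 15.7, and Cp, the secreted copper oxidase ceruloplasmin, read 558, 678 and 12.3. Of the 7 further probe sets of Cp, 6 had log2 differences of -3.62 to -2.96, and the other was below 50 throughout. Slc26a7, an anion exchanger, read 1254, 1997 and 34.4, and like the other 5 it was below 50 on replicate 3 only. The genes with the highest ratio were Ewsr1, Usp15, Chd1, Junb, Amer3 and Apba2, with log2 differences of 3.22 to 4.03. Ewsr1, an RNA-binding protein, read 1186, 1729 and 23795, and its next probe set read 114, 157 and 1128, also highest on replicate 3. Usp15, a deubiquitinase, read 188, 194 and 2507. Its other probe sets above 50 on every array had log2 differences of 1.72, 1.66, 1.53 and 0.01, the last reading 105, 111 and 109. Junb, an early gene, read 179, 133 and 1815 from a single probe set. Chd1, a chromatin remodeller, read 310.0, 309 and 3659, whereas its next probe set had a log2 difference of 0.59, so the size of its difference depends on the probe set.

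Within several lists the direction on replicate 3 followed the kind of protein. Members of 11 lists at 50 or more were sorted, after their values were seen and from textbook knowledge, into membrane or secretory proteins, which enter the endoplasmic reticulum (ER) as they are made, and soluble proteins of the cytosol, nucleus or mitochondria. A further 8 genes, such as those of tail-anchored proteins, were left unsorted. Of 198 membrane or secretory genes, 152 were lower on replicate 3 (65 by at least 2-fold, 2 higher by as much), with a median log2 difference of -0.65. Of 129 soluble genes, 103 were higher (40 by at least 2-fold, 5 lower by as much), with a median of 0.60. Over all 12095 genes the median was -0.10, with 6564 lower and 5531 higher. By at least 2-fold, 2555 (21.1%) of them were lower and 1002 (8.28%) higher. The sorting was chosen on these values and is a description only.

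The synaptic lists show the split. In the vesicle list 13 of 15 membrane genes were lower and 28 of 31 soluble genes higher. Syp, the vesicle membrane protein synaptophysin, read 4944, 6292 and 1889, and Syn1, the soluble synapsin that coats the same vesicles, read 2721, 3091 and 5152. Syp was lowest and Syn1 highest on replicate 3. In the postsynaptic list 12 of 13 membrane or secretory genes were lower and 25 of 28 soluble ones higher. Nlgn2, a neuroligin that spans the membrane, read 3279, 4186 and 1794, and Camk2a, the soluble calmodulin-dependent kinase, read 1349, 1539 and 5810.0, again in opposite directions. Homer1, a soluble scaffold, was an exception at -1.38.

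Chaperones and lipid enzymes divided in the same way. All 8 ER chaperone genes were lower, with a median log2 difference of -2.86, whereas the 37 others had a median of 0.09. Hspa5, the ER chaperone BiP, read 7491, 10741 and 966, and Hsp90b1, its ER partner, read 9702, 12911 and 1013. Hspa8 and Hsp90aa1, their cytosolic relatives, were higher on replicate 3 than on the other arrays, at 0.53 and 0.15. Exceptions were the soluble small heat shock genes Hspb1 and Hspb8 and the cochaperone gene Bag3, at -2.81, -2.56 and -2.09. In the cholesterol list all 9 soluble enzyme genes were higher and 15 of 16 membrane genes lower. Fasn, the soluble fatty acid synthase, read 2048, 1907 and 7384, and Elovl5, a membrane-bound elongase, read 3722, 5058 and 698. The receptor, channel and neuropeptide lists held mostly membrane or secretory genes, with medians from -1.35 for GABA and glycine receptors to -0.34 for potassium channels. Gphn, the soluble gephyrin scaffold of the inhibitory synapse, was at 1.62, and of 7 soluble potassium channel subunits 6 were higher. Except where they are among the leading or lowest members given earlier, the genes in these comparisons were chosen after their values were seen. The split was not seen alike in every list. Of the oligodendrocyte genes, 10 of 11 soluble ones were higher, but the membrane or secretory ones went both ways, with 6 lower and 4 higher. Of glutamate receptor genes 16 were lower and 10 higher, and of the soluble chaperone genes 17 were lower and 20 higher. Leptomeningeal genes of both kinds were lower on the same array. Other lists were not sorted, and some of them hold soluble proteins whose genes were lower there. Of 17 S100 and annexin genes at 50 or more, 11 were at least 2-fold lower and 1 higher. Of 26 interferon response and antigen presentation genes, 22 were at least 2-fold lower and 0 higher. The part that the lower leptomeningeal markers and the differing controls of that array play in the split was not tested.

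**Figure D5:**
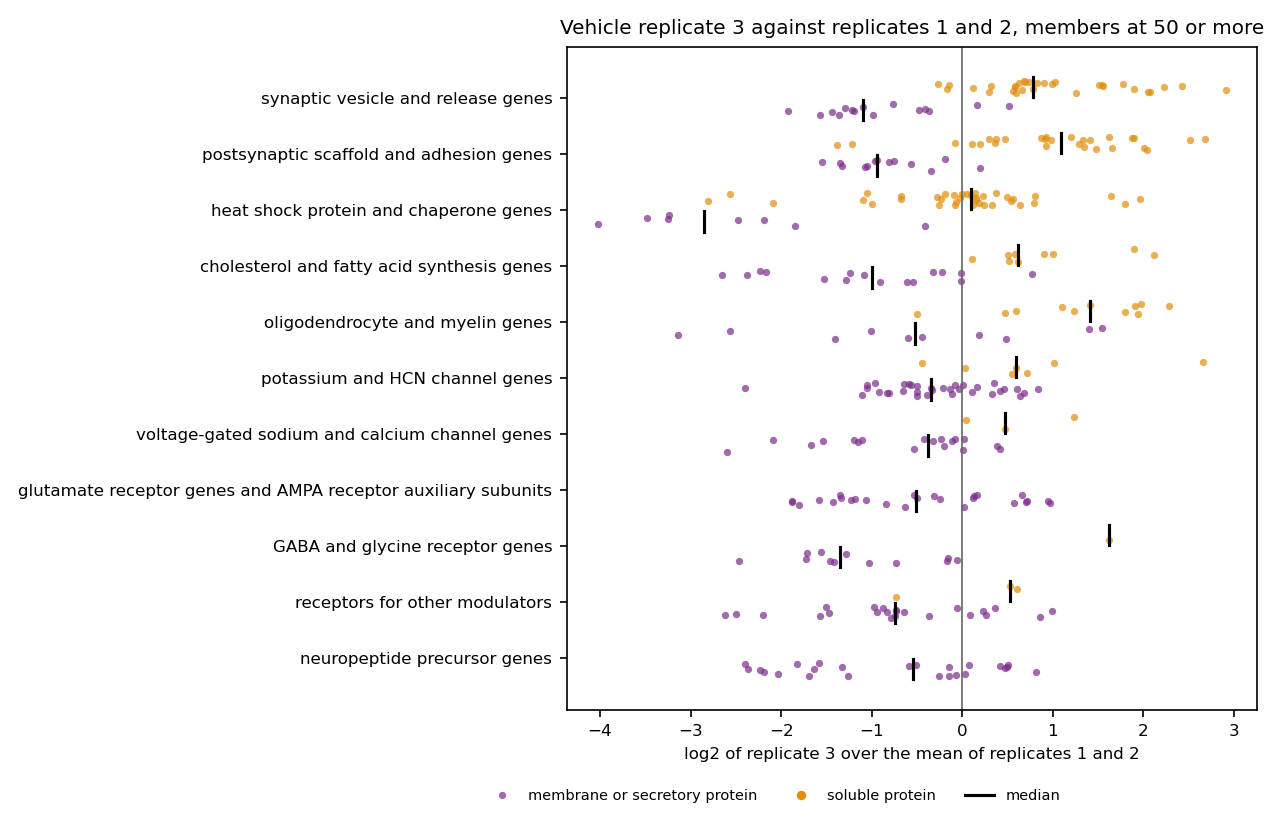
Each point is the log2 of VEH replicate 3 over the mean of replicates 1 and 2 (horizontal axis) for a gene with a mean of 50 or more, by list (vertical axis) and by kind of protein, with a bar at each median. Membrane or secretory genes lie mostly below 0 and soluble genes mostly above it, with medians of -0.65 and 0.60 over all the lists drawn; the genes were sorted after their values were seen.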

How the data were processed

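The authors deposited 1 column of linear probe set intensity per array, and GCRMA is the normalization named in the submitters' processing notes. Its version was not given in the sources used here. Per the labels' protocols, ribosomes were immunoprecipitated, and the bound RNA was extracted with Trizol-LS, treated with DNase, amplified in 2 cycles from 15 ng and labelled with biotin for 1-colour Affymetrix arrays. GCRMA as usually run models background from the base content of probes and gives all arrays 1 distribution, so array-wide shifts in signal are not seen in such values.

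Of 45101 probe sets, 64 controls were left out of all gene counts. The platform annotation gave 1 symbol to 34945 of the other 45037, several to 932 and none to 9160, and looking gene identifiers up in a newer table changed 0 symbols. A gene is its single-symbol probe set with the highest mean over the 3 VEH arrays. The 43 lists hold 20 sets of cell type markers, 22 functional sets and 1 set of genes restricted to other tissues. The members and lists were chosen with earlier results of these data known. Genes are named by rule: S100a10, the 30 of highest mean, the 3 highest and up to 2 lowest of each list, the genes on either side of 50, the 6 highest and 6 lowest ratios of replicate 3 to the others, and the measured serotonin receptors; for some lists fewer are given, and genes outside the rule are marked. In the sorting by kind of protein a gene held by several lists is counted once in the totals. Promoter sequences were found for 79.44% of the genes, under the limit of 80%, so the planned comparison of sequence features is void. Median protein length was not compared because no protein sequences were used here. Values were computed in Python 3.11.15 with pandas 2.3.3 and numpy 2.4.6, the counting was tested on simulated data, and figures were drawn with matplotlib 3.10.9. Alternatives were another summary of probe sets, plain probe sets alone, other means over arrays, other limits and each array left out.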

Additional observations from a re-analysis of the deposited data

How the results depend on the processing

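No paired analysis was possible because the description covers 1 group and makes no test. Of 496 counts recomputed under the alternatives, 456 stayed within 1.5 times the count given above. Counts of list members that were 2-fold lower or higher on replicate 3 moved more often: 158 of 516 changed by more than 1.5 times. Of 86 such counts under each choice, 61 moved with a 4-fold limit, 34 with 1.5-fold, 27 with the mean of all probe sets, 16 with plain probe sets, 14 with a minimum of 200 and 6 with arrays scaled to the same median. Mean signals of genes in the text moved by more than 1 SD in 55 of 393 cases, of which 37 of 58 were with the mean of all probe sets and 16 of 45 with plain probe sets. With the mean log2 signal of all probe sets of a gene, 2392 genes reached 1000, 211 reached 10000, and the hippocampal and thalamic list had 9 members at 50 or more and the serotonin list 4. That choice kept 13 of the 30 leading genes. With plain probe sets alone, 235 genes reached 10000, and members at 50 or more were 8 and 6 for large-subunit and small-subunit ribosomal protein genes, 12 for glycolysis, 15 for interferon response, 11 for S100 and annexin genes and 4 for genes of other tissues; fewer genes have such a probe set. Asking for 50 on each array left 12 microglia, 4 lymphocyte and neutrophil and 1 red blood cell genes. A minimum of 100 left 6 ependymal and 1 red blood cell genes, and a minimum of 25 gave 4 red blood cell, 11 lymphocyte and neutrophil and 15 other-tissue genes. With the geometric mean 1 red blood cell gene reached 50, and leaving out 1 array gave 1 to 2 for that list, the lower count without replicate 1. At 1.5-fold, replicate 3 was higher for 2305 genes. At 4-fold, replicate 3 was higher for 103 and lower for 1013. At 1.5-fold, replicate 1 was higher for 121 and lower for 66, and replicate 2 for 358 and 49. At 4-fold these 4 counts were 0. With a minimum of 200 they were 3, 5, 12 and 3. With the mean of all probe sets replicate 1 was higher for 5 genes and replicate 2 higher for 17 and lower for 3, and with plain probe sets replicate 1 was higher for 5. The cause of changes other than those from fewer probe sets or another limit was not tested. With 3 arrays, a dim gene's band rests on signals near the lowest on the array, and its absence cannot be read from a value below 50.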

Other observations

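The FLX arrays, which the description above does not use, also differed between these kinds of gene on their own replicate 3 in most of the lists. For the same probe sets, compared with FLX replicates 1 and 2, 162 of 198 membrane or secretory genes were lower on FLX replicate 3, with a median log2 difference of -0.70. Of 129 soluble genes, 114 were higher, with a median of 0.60. All 8 ER chaperone genes were lower there by at least 2-fold, and all 9 soluble enzyme genes of cholesterol and fatty acid synthesis were higher. The membrane or secretory genes of the oligodendrocyte list went both ways, with 5 lower, 5 higher and a median of 0.16. Over the 12095 genes the median was 0.05, with 5715 lower and 6380 higher. The genes were sorted with VEH values in view and with earlier results of the FLX arrays known, and the labels do not say what a replicate number shares between the groups, so this is no independent support.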
